A study of Sus scrofa with 16 samples.

Results

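The members, 5 HOX genes, were followed along the pig small intestine in single cells: HOXB6, HOXB7, HOXB8 and HOXB9 of the HOXB cluster and HOXA10 of the HOXA cluster. They were taken by symbol, and all 5 members were found among the 25880 genes counted. They belong to the 38 HOX genes measured. HOX genes encode homeodomain transcription factors that lie in clusters, and their order along the chromosome matches the order in which they are switched on from head to tail in the embryo. Genes towards the posterior end of a cluster are known for marking the hindgut and its neighbourhood, and adult gut epithelium keeps part of this positional code. CDX factors are known upstream regulators of HOX genes in the gut, and PBX and MEIS proteins bind DNA together with HOX proteins.

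The cells came from mixed-breed female pigs aged 7.5 weeks, and the study asked how epithelial cells differ along the small bowel. DUOD was duodenum right after the pylorus, JEJ was jejunum further down, IPP was a stretch of ileum holding Peyer's patches (lymphoid tissue inside the intestinal wall), and NoPP came from ileum free of patches. Epithelium was loosened with dithiothreitol and EDTA. Stromal-like cells were few (18 in all), but IPP also held 1142 B-like cells. Libraries were made with the droplet method of 10x Genomics (3′ chemistry, version 3), which counts each captured transcript by its UMI, a random tag. The labels name 16 titles, 4 per region, but each region has 1 matrix in which the titles cannot be told apart, so each group is 1 sample and no difference could be tested.

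Levels are given as CPM, a gene's UMIs per 1000000 UMIs of a cell class. Intervals are exact 95% intervals, Poisson for levels and ratios and Clopper-Pearson for shares of cells, and they cover counting error alone. Where a class held 0 UMIs, a fold was computed against a floor of 3 UMIs over that class and is given as a bound. These counts carry no scaling for gene length, so levels are compared within a gene. After filtering, the ileal libraries kept 3187 (IPP) and 2049 (NoPP) cells and the upper ones 714 (DUOD) and 978 (JEJ), with median depths from 3654 to 4412 UMIs. DUOD had 277 epithelial-like and 426 immune-like cells, JEJ 332 and 645, IPP 262 and 2884, and NoPP 163 and 1881. Clusters were formed without any HOX gene. The enterocyte-like class was held by different clusters in different regions. Its leading genes included TMPRSS15 and TM4SF1 in DUOD (164 of 167 cells), RBP2 (108 cells) or APOC3 (93 cells, in a cluster with a median of 2639.5 UMIs) in JEJ, and SLC10A2 and FABP6, the ileal bile acid transporter and binding protein, in IPP (147 of 147) and NoPP (26 of 27). NoPP stood apart in its barcodes. The barcodes of DUOD cells held a median of 160 UMIs in the NoPP library and of 8 each in JEJ and IPP, and 121 NoPP barcodes that were far richer in another library had been left out. In the final cells, DUOD and IPP shared 2 barcodes, IPP and NoPP 2, DUOD and NoPP 1, JEJ and IPP 1, and the remaining pairs of libraries 0.

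The summed members were higher in the ileum than in the upper gut in every epithelial class with at least 10 cells in the regions compared. Summed over the 5 members, epithelial-like cells held 7 UMIs in DUOD (1.10 CPM, 0.443 to 2.27) and 0 in JEJ, where the floor was 0.601 CPM. IPP held 335 UMIs (87.1 CPM, 78.1 to 97.0) and NoPP held 410 (215 CPM, 195 to 237). These pooled levels depend on the mix of classes, so the gap between IPP and NoPP is not one within a class. Enterocyte-like cells gave 2465170 of the 3844372 epithelial-like UMIs in IPP and 487244 of 1904933 in NoPP. JEJ, sampled downstream of DUOD, was no closer to the ileum in these counts. The summed level also differed between classes of the ileum. It was 40.6 CPM in IPP and 57.5 CPM in NoPP enterocyte-like cells, 137 and 184 CPM in goblet-like cells, and 273 and 536 CPM in enteroendocrine-like cells, the hormone-producing cells of the epithelium. In NoPP crypt epithelial-like cells, a small class (11 cells) whose leading genes included the stem cell marker OLFM4 and the Paneth cell gene LYZ, it was 158 CPM (107 to 226), against 0 UMIs in 31 JEJ cells. BEST4 enterocyte-like cells held 6 UMIs in 8 IPP cells, 1 UMI in 8 NoPP cells and 0 in 43 JEJ cells.

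**Figure D1:**
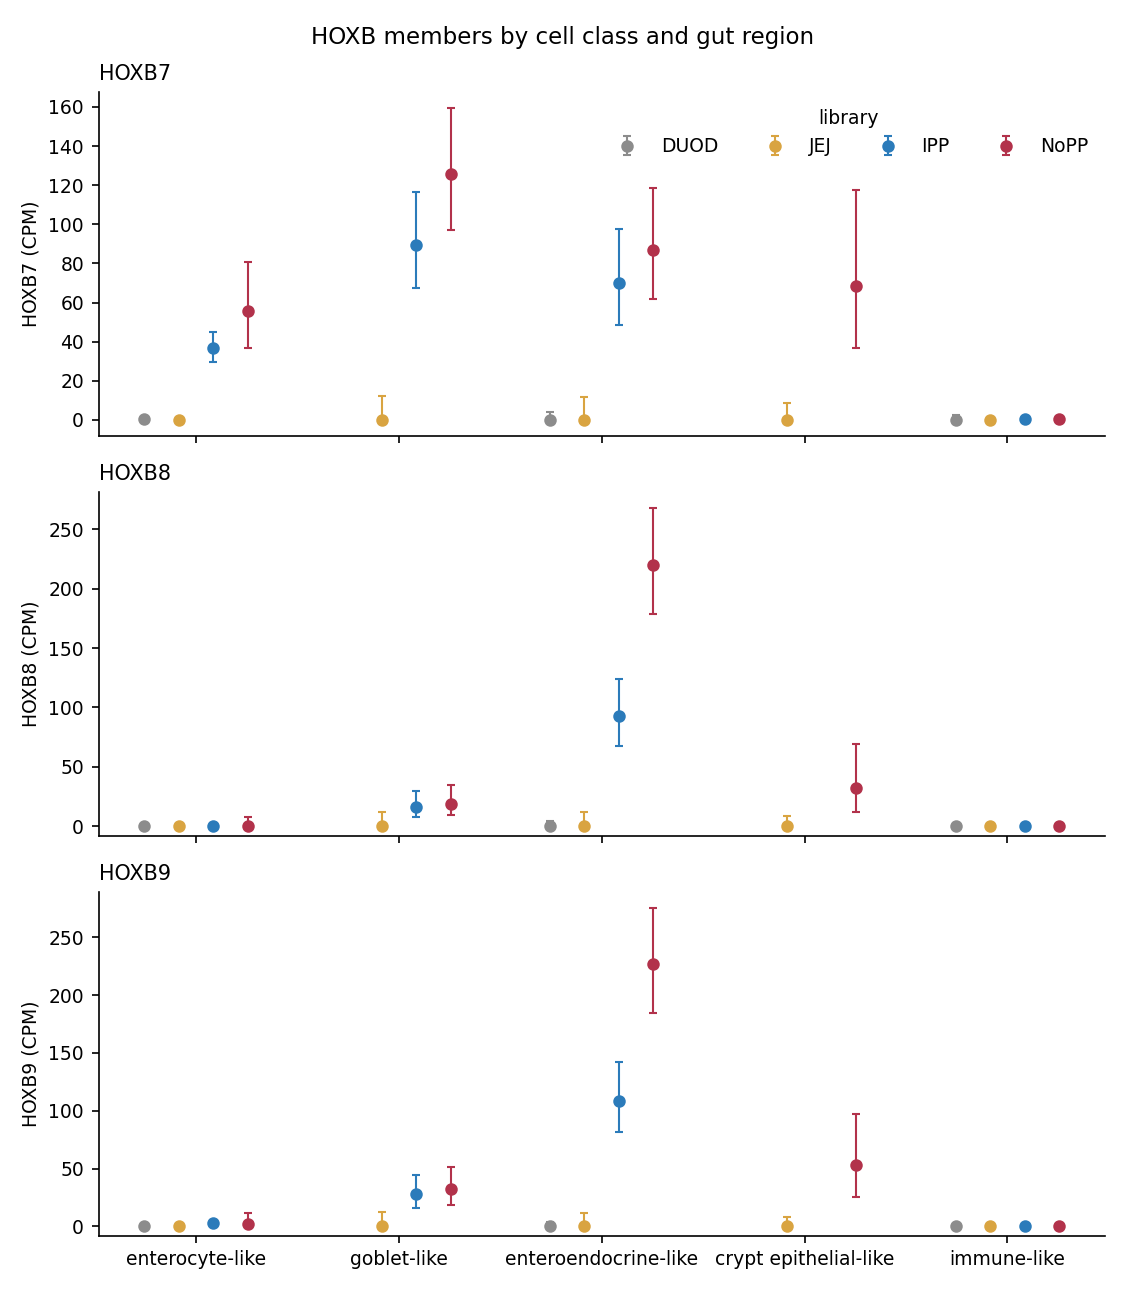
HOXB7, HOXB8 and HOXB9 in CPM (linear axis) by cell class and library. Points are levels over all cells of a class in 1 library, bars are exact 95% Poisson intervals, and classes with under 10 cells in a library are not drawn. HOXB7 lay between 36.5 and 125 CPM in all ileal epithelial classes shown, while HOXB8 and HOXB9 were highest in enteroendocrine-like cells and at most 2.84 CPM in enterocyte-like cells.

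HOXB7, a paralog group 7 gene whose promoter is widely used in mice to drive transgenes in kidney collecting ducts, was the member found across all ileal classes. In enterocyte-like cells it held 2 UMIs in DUOD (0.386 CPM, 0.0467 to 1.39), 0 in JEJ, 90 in IPP (36.5 CPM, 29.4 to 44.9) and 27 in NoPP (55.4 CPM, 36.5 to 80.6). The IPP level was at least 43.9-fold above JEJ and the NoPP level at least 66.6-fold. Both upper regions lay far below both ileal ones, and the intervals did not overlap. Against the 2 UMIs of DUOD the ratio was 94.6 (25.5 to 794) for IPP and 144 (36.1 to 1247) for NoPP. In enteroendocrine-like cells HOXB7 had 0 UMIs in DUOD and JEJ, 34 in IPP (69.8 CPM, 48.4 to 97.6) and 39 in NoPP (86.7 CPM, 61.7 to 119). Goblet-like cells, the mucus producers, held 0 UMIs in JEJ, 55 in IPP (89.5 CPM, 67.4 to 117) and 66 in NoPP (125 CPM, 97.0 to 160). Within each ileal library the goblet-like level exceeded the enterocyte-like one, 2.45-fold in IPP (1.72 to 3.47) and 2.26-fold in NoPP (1.43 to 3.69). Its UMIs were spread over many cells: 65 of 147 IPP enterocyte-like cells had one, and the richest of them held 3 of the 90 UMIs.

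HOXB8, a paralog group 8 gene, had 0 UMIs in the epithelial-like cells of DUOD and JEJ. Its ileal UMIs lay mostly in enteroendocrine-like cells, with 45 in IPP (92.4 CPM, 67.4 to 124) and 99 in NoPP (220 CPM, 179 to 268). These levels were at least 9.56-fold and 22.8-fold above JEJ, and at least 27.2-fold and 64.8-fold above DUOD. Enterocyte-like cells held 1 UMI in IPP, in 147 cells, and 0 in the 27 NoPP cells. The contrast between these classes was far larger for HOXB8 than for HOXB7, where it was 1.91-fold in IPP (1.25 to 2.87) and 1.56-fold in NoPP (0.934 to 2.66). The HOXB8 enteroendocrine-like level stood 228-fold above the enterocyte-like one in IPP, with a counting interval of 38.9 to 9197 since that rests on 1 UMI, and at least 35.8-fold above it in NoPP. Goblet-like cells were in between, with 10 UMIs in IPP (16.3 CPM, 7.81 to 29.9) and 10 in NoPP (19.0 CPM, 9.12 to 35.0). NoPP crypt epithelial-like cells held 6 UMIs in 5 of 11 cells (31.7 CPM, 11.6 to 69.0).

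HOXB9, of paralog group 9 and known in mice for patterning the ribs, followed the same order of classes. Enterocyte-like cells held 0 UMIs in DUOD and JEJ, 7 in IPP (2.84 CPM, 1.14 to 5.85) and 1 in NoPP. Enteroendocrine-like cells held 0, 0, 53 (109 CPM, 81.5 to 142) and 102 (227 CPM, 185 to 275) in DUOD, JEJ, IPP and NoPP. The difference between these classes was 38.3-fold in IPP (17.4 to 99.95) and 111-fold in NoPP (19.4 to 4407). Goblet-like cells held 17 UMIs each in IPP (27.7 CPM, 16.1 to 44.3) and NoPP (32.3 CPM, 18.8 to 51.8), which was at least 2.80-fold and 3.27-fold above JEJ. The enteroendocrine-like level was 3.93-fold above the goblet-like one in IPP (2.24 to 7.25) and 7.02-fold in NoPP (4.17 to 12.5), and for HOXB8 the same ratio was 5.68 (2.82 to 12.6) and 11.6 (6.04 to 24.9). HOXB7 showed no such step, since its enteroendocrine-like level was 0.780 of the goblet-like one in IPP (0.493 to 1.22) and 0.691 in NoPP (0.453 to 1.04).

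HOXA10 and HOXB6 were near the limit of detection. HOXA10, known in mice and humans for uterine development, had 6 UMIs each in the epithelial-like cells of IPP (1.56 CPM, 0.573 to 3.397) and NoPP (3.15 CPM, 1.16 to 6.86) and 0 in DUOD and JEJ, where the floors were 0.472 and 0.601 CPM. Goblet-like cells held 2 of these UMIs in IPP and 4 in NoPP, enteroendocrine-like cells 1 in each, and 1 IPP crypt epithelial-like cell held 3. HOXB6, the neighbour of HOXB7, had 2 UMIs in IPP enterocyte-like cells and 0 in all other kept epithelial-like and immune-like cells. At this depth its absence cannot be told from a low level. In the RefSeq gene order of Sscrofa11.1, used for order alone, HOXB5, HOXB6, HOXB7 and HOXB8 lie next to each other without overlapping.

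The 7 UMIs of DUOD lay in 2 of 277 cells. One, crypt epithelial-like, held 5 UMIs of HOXB9 and 1 of HOXA9. The other, enterocyte-like, held the 2 UMIs of HOXB7 and was the single DUOD cell in the cluster led by SLC10A2 and FABP6. It held 586 UMIs of FABP6, whereas the other 166 DUOD enterocyte-like cells held at most 1. Neither cell had a UMI of GATA4, but all 277 DUOD cells held 377 of them, so its absence from 2 cells says little. Their barcodes held 912 and 488 UMIs in the NoPP library, 4.31 and 4.15% of their own UMIs, near the median of 4.23% for all DUOD cells.

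A gene was counted as measured in a comparison when it had at least 10 UMIs over both groups, and as higher or lower when the levels differed at least 2-fold. In enterocyte-like cells, 1 of 5 members (HOXB7) was measured and it was higher in IPP than in JEJ, beside 11.3% of all 9163 genes measured. At a mitochondrial limit of 10%, where 19 IPP enterocyte-like cells with 1 member UMI remained, it was no longer measured. It was also higher in NoPP than in JEJ (background 11.4%), in IPP than in DUOD (11.4%) and in NoPP than in DUOD (16.3%). In enteroendocrine-like cells, 3 of 5 (HOXB7, HOXB8 and HOXB9) were measured and all 3 were higher in IPP than in JEJ (10.3%), in NoPP than in JEJ (16.7%), in IPP than in DUOD (18.2%) and in NoPP than in DUOD (25.4%). In goblet-like cells, 3 were measured and 2 were higher in IPP than in JEJ (14.6%) and in NoPP than in JEJ (18.0%), where the bound for HOXB8 was 1.65-fold and 1.92-fold. In crypt epithelial-like cells, HOXB7 and HOXB9 were measured and both were higher in NoPP than in JEJ (14.4%). Their highest cells held 5 of 13 HOXB7 UMIs and 4 of 10 HOXB9 UMIs, and without these cells neither gene was measured any longer. No member was measured between JEJ and DUOD in any class. In the classes compared, the measured members held 0 UMIs in JEJ and at most 2 in DUOD. They reached 10 UMIs through the ileal cells, so a call of lower in the ileum was not possible. Outside goblet-like cells, a call of higher followed from this minimum and the floor, so the calls add nothing to the levels above. All comparisons with one region share its library.

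Between the ileal libraries the members differed by class. In enteroendocrine-like cells, 2 of 3 measured members were at least 2-fold lower in IPP than in NoPP, beside 13.6% of all genes. HOXB8 was 2.38-fold higher in NoPP (1.66 to 3.47) and HOXB9 2.08-fold (1.48 to 2.96), while HOXB7 was 1.24-fold higher with an interval that included 1 (0.764 to 2.03). Without the cluster led by GCG, PYY and NTS, described next, 1 member (HOXB9) was lower, with log2 ratios of IPP over NoPP of -0.51 for HOXB8 and -1.43 for HOXB9. In goblet-like cells 0 of 3 were lower (background 11.7%), and the NoPP levels were 1.40-fold (0.965 to 2.04) for HOXB7, 1.17-fold (0.436 to 3.13) for HOXB8 and 1.17-fold (0.560 to 2.43) for HOXB9. In enterocyte-like cells 0 of 1 was lower (7.84%), with HOXB7 1.52-fold higher in NoPP (0.949 to 2.36). All genes measured leaned the same way. Their median log2 ratio of IPP over NoPP was -0.208 in enteroendocrine-like, -0.172 in goblet-like and -0.0576 in enterocyte-like cells. The goblet-like log2 ratios of HOXB8 and HOXB9, -0.224 each, lay near that median.

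The enteroendocrine-like class was made of 3 clusters that hold different hormone genes, and the libraries filled them unequally. A cluster led by CCK, GHRL and MLN held 41 DUOD cells, 12 JEJ cells, 2 IPP cells and 13 NoPP cells. One led by PENK held 5, 9, 21 and 12 cells, and one led by GCG, PYY and NTS, hormones of the lower gut, held 0, 0, 13 and 17. HOXB8 was among the 10 genes of largest fold in this last cluster over all other epithelial-like cells. Those include the DUOD and JEJ cells, which held 0 UMIs of it, and the clusters had been formed without HOX genes. Inside the CCK-led cluster the regions still differed. DUOD and JEJ had 0 UMIs of any member, and NoPP had 11 of HOXB7 (91.9 CPM, 45.9 to 165), 12 of HOXB8 (100 CPM, 51.8 to 175) and 29 of HOXB9 (242 CPM, 162 to 348). HOXB8 was the member that varied most between the ileal clusters. It was 31.2 CPM in IPP (12.5 to 64.2) and 46.1 CPM in NoPP (16.9 to 100) in the PENK-led cluster, and 139 CPM (95.03 to 196) and 405 CPM (322 to 503) in the GCG-led cluster. HOXB7 stayed between 69.2 and 95.01 CPM in these 4 groups. In the GCG-led cluster the NoPP level was 2.92-fold above IPP for HOXB8 (1.91 to 4.54) and 1.87-fold for HOXB9 (1.22 to 2.89), each larger than the counting error. In the PENK-led cluster it was 1.48-fold (0.411 to 5.14) and 1.50-fold (0.655 to 3.37), and both intervals included 1. The CCK-led cluster had 2 IPP cells, too few to compare, while its NoPP cells held 29 of the 102 HOXB9 UMIs of the class. Part of the HOXB8 count rested on few cells: 1 NoPP cell held 18 of the 99 UMIs, and 5 cells held at least 50% of them.

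**Figure D2:**
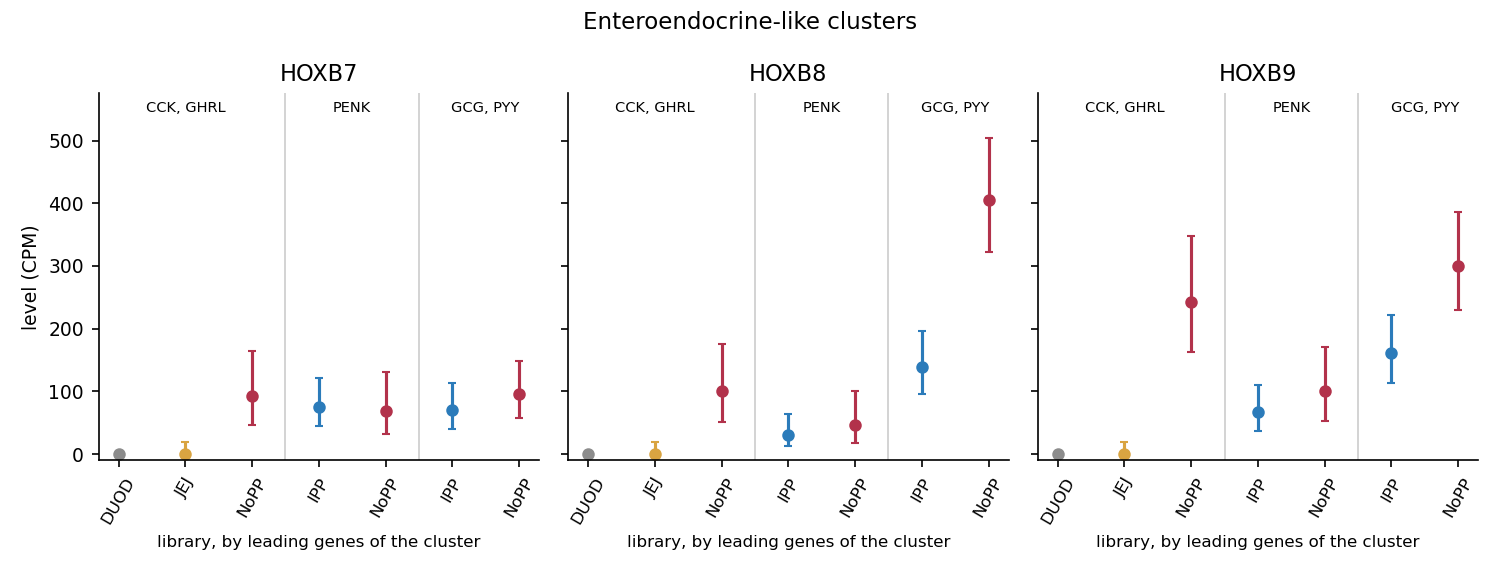
Levels of HOXB7, HOXB8 and HOXB9 (CPM, linear axis) in the 3 enteroendocrine-like clusters, which are marked above by leading hormone genes, in each library with at least 10 cells. Points are levels over all cells of a cluster in 1 library and bars are exact 95% Poisson intervals. HOXB8 reached 405 CPM in NoPP cells of the GCG-led cluster, and DUOD and JEJ cells of the CCK-led cluster were at 0.

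Per cell, the classes differed in how many members were detected together. At least 2 members were found in 19 of 36 IPP enteroendocrine-like cells (52.8%) and in 30 of 42 in NoPP (71.4%). The counts were 17 of 40 (42.5%) and 13 of 40 (32.5%) in goblet-like cells, and 6 of 147 (4.08%) and 1 of 27 (3.70%) in enterocyte-like cells. Enterocyte-like cells were not shallower, with median depths of 16505 UMIs in IPP and 18152 in NoPP against 11744.5 and 11078 in enteroendocrine-like cells. HOXB8 and HOXB9 were often seen in the same cell. Of the NoPP enteroendocrine-like cells with HOXB8, 22 of 25 (88.0%) also had HOXB9, compared with 58.8% of those without HOXB8. In IPP it was 15 of 18 (83.3%) against 44.4%. Deeper cells show more of every gene, and cells with any member were deeper (14152.5 UMIs against 5835 in IPP, 11903.5 against 2472 in NoPP), so this pairing was not separated from depth.

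**Figure D3:**
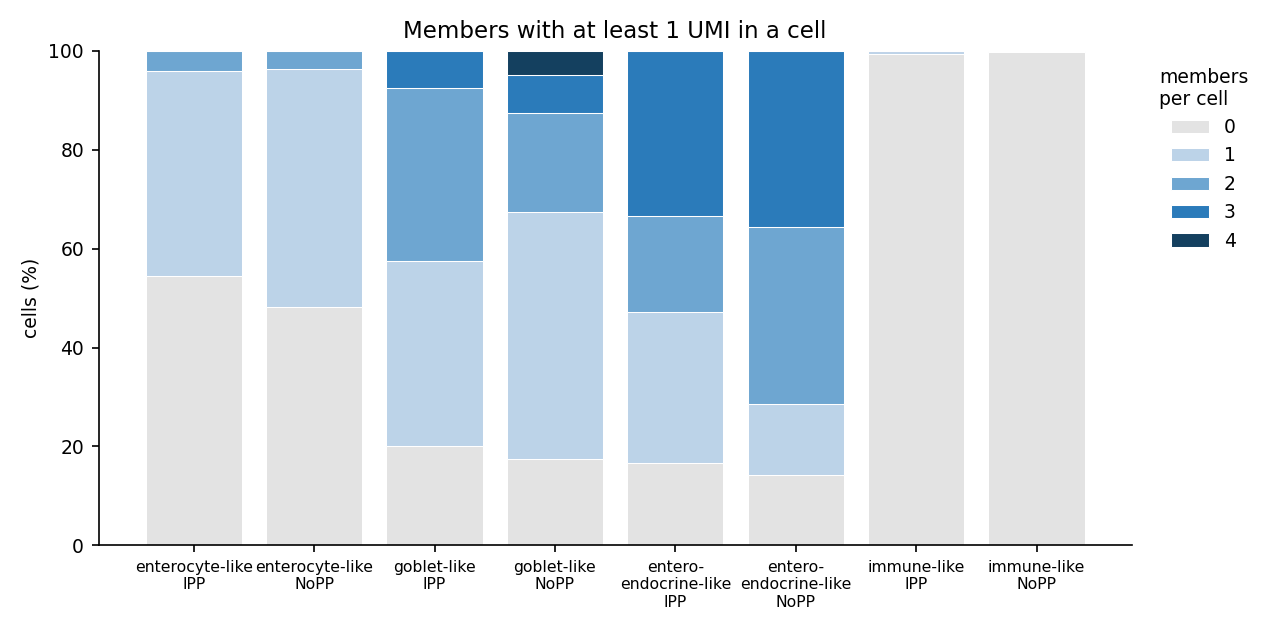
Share of cells (%) by the number of members with at least 1 UMI in the cell, for 3 epithelial classes and immune-like cells of both ileal libraries. Stacked segments add up to all cells of a class. Cells with 3 members made up 33.3% of IPP and 35.7% of NoPP enteroendocrine-like cells and 0% of enterocyte-like cells.

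To set shares side by side at one depth, cells were thinned to 2000 UMIs and shallower ones left out. A HOXB8 UMI remained in 12 of 40 NoPP enteroendocrine-like cells (30.0%, 16.6 to 46.5; 2 left out; 59.5% before thinning) and in 5 of 35 in IPP (14.3%, 4.81 to 30.3; 1 left out; 18 of 36 before). None of 145 IPP enterocyte-like cells kept one, which allows up to 2.07% at the floor of 3 counts (exact upper limit 2.51%), and 2 cells were left out. Goblet-like cells kept one in 1 of 40 cells in IPP (interval 0.0633 to 13.2%; 22.5% before) and 0 of 40 in NoPP (exact upper limit 8.81%; 8 of 40 before). HOXB7 remained in 14 of the 145 IPP enterocyte-like cells (9.66%, 5.38 to 15.7; 44.2% before thinning) and in 2 of 35 IPP enteroendocrine-like cells (5.71%, 0.700 to 19.2; 52.8% before). The latter share goes against the higher CPM of that class, the intervals overlap, and no order is read from it. The background in immune-like cells was far lower. Any member was seen in 8 of 2581 IPP immune-like cells (0.310%; 303 left out; 0.624% before thinning) and in 3 of 1578 in NoPP (0.190%; 303 left out; 0.319% before), with median depths of 4202.5 and 3526 UMIs before thinning. For HOXB8 the thinned shares were highest in enteroendocrine-like cells, as the levels were, and gave no order between goblet-like and enterocyte-like cells. For HOXB7 in NoPP the thinned share of enterocyte-like cells rested on 1 cell of 26 and gives no order.

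Immune-like cells, the contrast to the epithelium, held few members in the ileum and 0 UMIs in DUOD and JEJ. The 5 members summed to 18 UMIs in 2884 IPP cells (1.06 CPM, 0.629 to 1.68) and 6 in 1881 NoPP cells (0.803 CPM, 0.295 to 1.75). Epithelial-like cells stood 76.1-fold above immune-like cells for HOXB7 in IPP (41.6 to 155), 82.3-fold for HOXB8 (26.7 to 411) and 89.3-fold for HOXB9 (33.6 to 336). These few UMIs were set against the share of epithelial markers found in the same cells. Immune-like cells of IPP held 23 epithelial and enterocyte markers at 1.05% of their epithelial level, and the members at 1.31% (HOXB7), 1.22% (HOXB8) and 1.12% (HOXB9). At the markers' share, 8.81, 2.60 and 3.76 UMIs would be seen, and 11, 3 and 4 were. In NoPP 7.09, 5.55 and 6.20 would be seen at 1.19%, and 3, 0 and 3 were. The observed counts were thus near those at the markers' share in IPP and below them in NoPP. The markers are those of epithelium and enterocytes, while HOXB8 and HOXB9 lay mostly in enteroendocrine-like cells. Where these UMIs came from was not tested. Barcodes with under 100 UMIs, which hold free RNA, carried the members at 41.8 CPM in NoPP (36.3 to 47.9), 19.5 in IPP (16.04 to 23.6), 0.539 in JEJ and 0.409 in DUOD, so both ileal libraries lay above both upper ones there too, and NoPP above IPP. Stromal-like cells were rare, and the 4 of IPP held 6 member UMIs, 3 of them HOXB8.

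**Figure D4:**
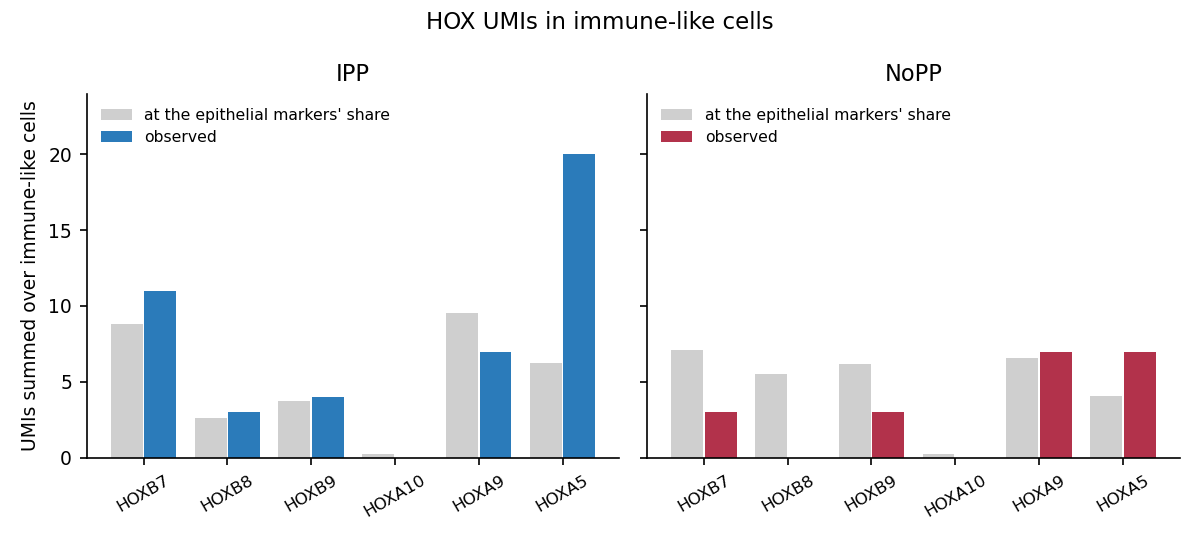
UMIs of 6 HOX genes summed over the immune-like cells of IPP and NoPP (coloured bars) beside the UMIs that would be seen if each gene were present at the same share of its epithelial level as 23 epithelial and enterocyte markers (grey bars). For HOXB7, HOXB8 and HOXB9 the observed counts were 11, 3 and 4 in IPP and 3, 0 and 3 in NoPP, while HOXA5 had 20 in IPP against 6.21.

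Across the other 33 HOX genes measured, the same 2 regions stood out. Pooled over classes, whose mix differs between libraries, epithelial-like cells held 743 UMIs of all HOX genes in IPP (193 CPM) and 703 in NoPP (369 CPM). DUOD held 8 (1.26 CPM) and JEJ 5 (1.00 CPM), and the 5 members made up 45.1% of the IPP and 58.3% of the NoPP count. In the ileum, genes of paralog groups 5, 7, 8 and 9 held most of these UMIs, and groups 11, 12 and 13, which mark the hindgut and cloaca in embryos, held 0 in every region. HOXA9 held 1, 0, 206 and 141 UMIs in DUOD, JEJ, IPP and NoPP, and HOXA5, known in mice for lung and gut development, 0, 1, 134 and 87. HOXA7 held 0, 0, 20 and 23 UMIs and HOXA3 0, 1, 15 and 13. HOXB5 held 10 UMIs over all regions. The HOXA and HOXB clusters held nearly all of it, with 387 and 338 UMIs in IPP and 277 and 409 in NoPP, against 8 and 13 for HOXC and 10 and 4 for HOXD.

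**Figure D5:**
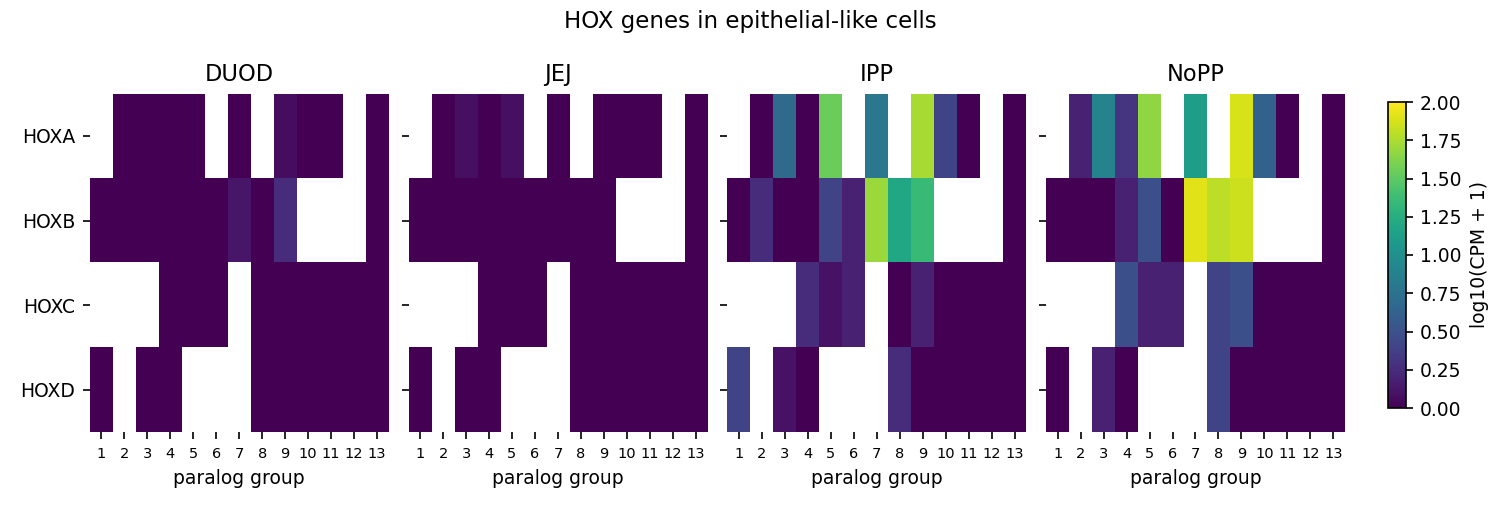
Levels of HOX genes in epithelial-like cells as log10(CPM + 1), by cluster (rows) and paralog group (columns), 1 panel per library. White cells hold no gene of that name or one not analysed here. Colour is confined to low levels in DUOD and JEJ (1.26 and 1.00 CPM over all HOX genes), and in both ileal libraries it is brightest at HOXA5, HOXA9, HOXB7, HOXB8 and HOXB9.

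By class, HOXA9 and HOXA5 lay between HOXB7 and HOXB8 in their contrast. HOXA9 was 25.6 CPM in IPP enterocyte-like cells (19.6 to 32.7) and 148 CPM in enteroendocrine-like cells (116 to 186), a ratio of 5.79 (4.07 to 8.25), and in NoPP the ratio was 6.95 (3.76 to 14.04). These ratios were larger than those of HOXB7 given above. HOXA7 had 16 of its 20 IPP UMIs and 15 of its 23 NoPP UMIs in enteroendocrine-like cells. HOXA5 was seen in immune-like cells above the markers' share. It had 20 UMIs in IPP against 6.21 at that share, and 15 in 9 of 645 JEJ cells (5.75 CPM, 3.22 to 9.48), where the epithelial-like cells held 1. Between regions, 2 other HOX genes (HOXA5 and HOXA9) were measured in enterocyte-like cells and 3 (also HOXA7) in enteroendocrine-like cells. All were higher in IPP than in JEJ, beside 11.3% and 10.3% of all genes in these classes. The JEJ cells of these classes held 0 UMIs of them, so they too were measured through the ileal cells. A call of lower was not possible, and a call of higher followed from the minimum and the floor. These calls too add nothing to the levels.

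A list of 28 partners and upstream regulators of HOX genes gave a mixed picture. In enterocyte-like cells 19 were measured, of which 5 were higher in IPP than in JEJ and 4 lower, beside 11.3% higher and 16.9% lower among all genes. In enteroendocrine-like cells 15 were measured, 3 higher and 6 lower, beside 10.3% and 11.8%. CDX2, the intestinal homeodomain factor upstream of HOX genes, was 193 CPM in IPP and 195 in NoPP enterocyte-like cells, against 53.2 in DUOD and 88.8 in JEJ, a 2.17-fold difference between IPP and JEJ (1.88 to 2.51). Unlike the members it was present in all regions. Its rise over JEJ was not seen in enteroendocrine-like cells, where log2(CPM + 10) was 7.05 in JEJ, 6.82 in IPP and 6.87 in NoPP (5.17 in DUOD). Goblet-like cells did show it, with 6.31, 7.62 and 7.86 in JEJ, IPP and NoPP, and crypt epithelial-like cells had 7.40 in JEJ and 7.53 in NoPP. The related gene CDX1 was at most 2.43 CPM in enterocyte-like cells. OSR2, an odd-skipped zinc finger factor, held 6, 1, 327 and 59 UMIs in enterocyte-like cells of DUOD, JEJ, IPP and NoPP. It differed from HOXB8 and HOXB9 in class, with 133 CPM in IPP enterocyte-like and 28.8 CPM in IPP enteroendocrine-like cells.

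The upper-gut factors ran the other way. GATA4, which marks duodenum and jejunum in mice, was 66.7 CPM in DUOD and 76.8 in JEJ enterocyte-like cells, and held 0 UMIs in IPP and 1 in NoPP. PDX1, the pancreatic and duodenal homeodomain factor, was 49.0, 31.6 and 0.811 CPM in DUOD, JEJ and IPP and 0 in NoPP enterocyte-like cells. In enteroendocrine-like cells PDX1 kept 22.6 CPM in IPP (11.3 to 40.4) and 48.9 CPM in NoPP (30.7 to 74.1), in the same class that held most HOXB8 and HOXB9. MEIS1, a cofactor of HOX proteins, held 2 UMIs in DUOD enterocyte-like cells and 0 in those of the other regions. Pooled over all epithelial-like cells it held 14, 63, 5 and 13 UMIs in DUOD, JEJ, IPP and NoPP. The totals there were 6351205, 4992212, 3844372 and 1904933 UMIs, so its pooled level was higher in NoPP than in DUOD. MEIS1 thus did not follow the order of GATA4 and PDX1.

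The genes most like the members were sought over 14 groups of epithelial class and region, by Pearson's r of log2(CPM + 10) with the summed members among 9404 genes. These groups share libraries and depth, so r is a description. HOXA9 ranked 1 (r = 0.989) and HOXA5 ranked 2 (0.980). RNF180, a ubiquitin ligase gene, ranked 4 (0.918) and the haemoglobin gene HBB, a red cell marker, ranked 5 (0.907). OSR2 ranked 45 (0.741), the bile acid binding gene FABP6 295 (0.584) and CDX2 493 (0.523). GATA4 ranked last of all 9404 (r = -0.918).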

How the data were processed

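The deposited files hold raw UMI counts per gene and barcode, made by the authors with Cell Ranger 4, per the file headers (4.0.6 per the submitters' processing notes). No coordinates or sequences are printed, as the build is not given in the sources used here. Of 25880 genes, 17733 had a symbol in the files and 977 took one from a gene name table. Barcodes with at least 1000 UMIs, 500 genes and at most 25% mitochondrial UMIs were kept. Those whose UMI total was 10 or more times higher in another library (121) and the highest doublet scores (133) were left out, leaving 6928 cells. Total UMIs per matrix ranged from 44726845 to 91813234. Cells were clustered with scanpy 1.11.5 and leidenalg 0.10.2 on 2000 variable genes without HOX and mitochondrial genes, 30 components and 20 neighbours (15 for epithelial cells). Clusters were named from marker lists with at least 3 markers detected. Names are rebuilt and may differ from the authors' own. The naming rule was revised after the clusters were seen: markers of all epithelial classes but crypt counted for epithelium, and clusters led by T cell genes (41 cells) or by HBB at low depth (90 cells) stayed unnamed and count under epithelial-like cells alone. UMIs were summed per class and region, and ratios, intervals, calls and thinning were tested on simulated data. The simulated folds were placed in well-counted genes with Poisson counts. Calls for genes absent from a region and uneven counts between cells were thus not covered. The genes named were the 5 members, other HOX genes with at least 10 UMIs over the epithelial-like cells, 8 listed partners and the 5 most alike genes. Other partners were counted, and some genes that this rule names are not reported here. The members and lists were chosen with earlier results of these data known. Filters, gate, scaling and thresholds were varied.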

Additional observations from a re-analysis of the deposited data

Results flagged for a closer look

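Barcodes above the mitochondrial limit of 25% entered none of the report's comparisons between regions or classes at that limit, and they held members in the ileum above the level in DUOD and JEJ. NoPP had 918 of them, IPP 1558, JEJ 2187 and DUOD 2435. HOXB6 had 10 UMIs in 10 IPP barcodes (0.989 CPM, 0.474 to 1.82) and 12 in 12 NoPP barcodes (2.12 CPM, 1.09 to 3.70), and 0 in DUOD and JEJ. Kept cells, with fewer epithelial-like UMIs, had 2 UMIs of it in all, and the free RNA of NoPP had 8 (1.62 CPM). In kept epithelial-like cells its level was 0.520 CPM in IPP (0.0630 to 1.88) and 0 in NoPP (upper limit 1.94 CPM). These intervals overlap those of the barcodes above the limit, so no difference in HOXB6 between them is read. HOXB7 stood at 14.2 CPM in IPP and 17.3 CPM in NoPP, against 1 UMI in DUOD and 0 in JEJ. HOXB8 stood at 1.09 and 4.77 CPM and HOXB9 at 3.07 and 12.2 CPM, with 0 UMIs in both upper regions. The cell type of these barcodes was not determined.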

How the results depend on the processing

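No paired analysis was possible because the 4 titles of a region share 1 matrix, and leaving out a replicate was impossible for the same reason. Counts of members called stayed within 1.5 times in 194 of 207 recomputed values, and no ratio of a called member changed sign. Against JEJ and DUOD, where the members were nearly absent, such a change could hardly arise. Summed levels left their main interval in 11 of 202 recomputed values. Shares thinned to 1000 UMIs left the interval found at 2000 UMIs in 10 of 33 values. At a mitochondrial limit of 10%, HOXB7 was no longer called in IPP enterocyte-like cells against JEJ or DUOD (0 members each), since 19 cells with 1 member UMI remained. At this limit NoPP enterocyte-like, NoPP crypt epithelial-like (6 cells) and JEJ goblet-like cells were too few to compare. The crypt epithelial-like comparison was also lost at 2000 UMIs and 1000 genes (8 NoPP cells) and under the per-cell marker gate (5). Comparisons that could not be made are not among the 207 values. Without a minimum of UMIs, 2 members were higher in IPP enterocyte-like cells against JEJ and against DUOD, and 1 was lower in IPP than in NoPP goblet-like cells. At 1.5-fold, 1 member was lower in IPP than in NoPP enterocyte-like cells. The 2 members lower in IPP enteroendocrine-like cells became 1 at a limit of 40%, 1 with the mean of the cells' own CPM, 1 without the GCG-led cluster (added after seeing the data) and 0 at 4-fold. At 4-fold, 1 member was higher in goblet-like cells of IPP and of NoPP than of JEJ. With each gene's highest cell left out, 0 members remained called in NoPP crypt epithelial-like cells, which rest on 11 cells, since none reached the minimum of UMIs. The 1.65-fold and 1.92-fold bounds for HOXB8 in goblet-like cells passed 2-fold under the per-cell marker gate. A stricter rule on shared barcodes, also added after seeing the data, moved no count by over 1.5 times. Classes of under 20 cells and single UMIs limit what can be seen here.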
